A study of Mus musculus with 2 samples.

Results

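The cytoplasmic ribosomal protein genes encode the protein part of the 80S ribosome, and 90 of the 24532 gene IDs in the deposited tables belonged to them. A gene was taken when its mouse symbol was Rpsa or Rplp0 to Rplp2, or began with Rps or Rpl followed by a number. The 6 pseudogenes marked by -ps in their symbol and 10 genes of ribosomal protein kinases were left out. By their names, 36 members belong to the small subunit and 54 to the large subunit. The name rule also took Rps19bp1, which encodes a binding partner of a ribosomal protein and not a ribosomal protein, and Rps23rg1, a gene derived from a retroposed copy.

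RNA was measured in CD69+ double-positive (DP) thymocytes sorted from C57BL/6 mice aged 6 weeks. These are CD4+CD8+ cells of the thymus that carry CD69, a surface marker of recent antigen-receptor signalling. One library came from mice with floxed NSRP1 alleles and no Cre (NSRP1f/f), labelled wild-type, and the other from mice with the same floxed alleles and CD4Cre, labelled as the NSrp70 conditional KO. NSrp70, the product of Nsrp1, is a nuclear speckle protein that regulates splicing. CD4Cre is driven by regulatory sequence of Cd4 and acts from about the DP stage on, so earlier thymocytes are not targeted. Whether the allele was deleted in the sorted cells could not be read from the RNA, as given next. The sources used here do not give the number of mice per library. With 1 library per genotype no difference has a replicate check, and every value below is a description of these libraries.

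The libraries held an estimated 20787802 and 25129518 read pairs on annotated exons, labelled wild-type first, as in all pairs of values that follow. Nsrp1 itself stood at 29.7 and 29.6 TPM, a level per transcript length that sums to the same fixed total in each library. Its 7 exons had log2 ratios from -0.27 to 0.12, so no exon of the targeted gene was missing from the library labelled KO, and the groups are called by their labels throughout. All 11 DP thymocyte markers were present, with a summed level of 6271 and 6693 TPM, among them Cd4 at 725 and 663 TPM, Cd8a at 1138 and 1151 TPM and Cd69 at 430 and 522 TPM. Markers of other cells were low. The 5 B cell markers summed to 53.6 and 62.1 TPM, the 4 natural killer cell markers to 51.0 and 68.3 TPM, the 8 myeloid and dendritic cell markers to 171 and 135 TPM, the 6 thymic epithelial markers to 14.5 and 15.4 TPM and the 6 erythroid markers to 1.36 and 3.08 TPM. Of the last 2 lists, 3 genes each were at 0 in both libraries. Both libraries held RNA of female and male cells in different proportions, with the female-specific Xist at 201.8 and 76.3 TPM and the Y-linked Ddx3y at 31.1 and 71.2 TPM. On a list of 14 genes of the G2/M phase every gene was higher in the KO-labelled library (median log2 fold change 0.83). The part of other cell types, sex or cycling cells in the values of the ribosomal protein genes was not tested. In bulk RNA, fewer cells of a type and less RNA per cell cannot be told apart.

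A ribosome holds 1 copy of nearly every ribosomal protein, and the genes are transcribed at high and similar rates in growing cells. In vertebrates their RNAs are TOP RNAs: they begin with a C and a run of pyrimidines, the 5′ terminal oligopyrimidine tract, through which mTORC1 signalling and LARP1 control their translation and stability. In developing thymocytes ribosomal proteins are more than passive parts, and loss of Rpl22 is known to block development of alphabeta T cells.

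Such runs were searched for at the annotated starts of the members. RefSeq (GRCm38.p6) promoter sequences were available for 69 members, with 81 promoters, of which 63 lay at the start used in the deposited files. A run of a C and at least 4 further C or T letters began within 10 bases of the start in 54.3% of them, against 31.0% of 21181 promoters of other protein-coding genes. Within 25 bases the shares were 79.0% and 55.6%, and runs of 8 or more letters were found in 50.6% and 17.1%. The following windows of 30 bases, 15 on each side of the annotated start, are shown because they cover members with and without the run among those described below. Capitals mark the run.
Rpl28, chr7:4792950-4792979, + strand: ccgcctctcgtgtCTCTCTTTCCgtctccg
Rps9, chr7:3704026-3704055, + strand: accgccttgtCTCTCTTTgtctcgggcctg
Rpl12, chr2:32961697-32961726, + strand: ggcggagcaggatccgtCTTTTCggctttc
Rpl27a, chr7:109519180-109519209, + strand: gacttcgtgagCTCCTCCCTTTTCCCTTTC
Rplp0, chr5:115559452-115559481, + strand: gtcttcgggtttcgaggaccgcctggttct
Rps3a1, chr3:86142654-86142683, - strand: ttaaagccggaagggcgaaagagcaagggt
The windows of Rplp0 and Rps3a1 held no such run, which says only that these letters are not in these windows at the annotated start.

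In the 300 bases of each promoter, searched on both strands, CCGGAAG, a core of ETS family sites, occurred in 33.3% of the members' promoters and in 11.5% of those of other coding genes. AAGATGGCG, a YY1 core, occurred in 7.41% and 1.81%, the SP1 box GGGCGG in 58.0% and 46.2%, and TATAAA in 9.88% and 12.6%. Runs of 8 or more letters within 25 bases of the start did not divide the members by how they differed between libraries. The run within 10 bases, marked by capitals above, was not used for this split. The 38 tested members with a run of 8 or more letters had a median log2 fold change of 0.07, and the 28 with a promoter but no such run had a median of 0.06.

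Together the members made up 15.2% and 15.9% of all TPM. They were 59 of the 100 most abundant genes and 73 of the 255 genes with a mean of at least 500 TPM. Their RNAs are short, so their share of read pairs was lower, at 4.79% and 5.33%. Of the 90 members, 32 had means between 1000 and 2000 TPM, 28 between 2000 and 3000 TPM and 9 above 3000 TPM. At the other end, 9 had means between 1 and 100 TPM and 3 were below 1 TPM.

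**Figure D1:**
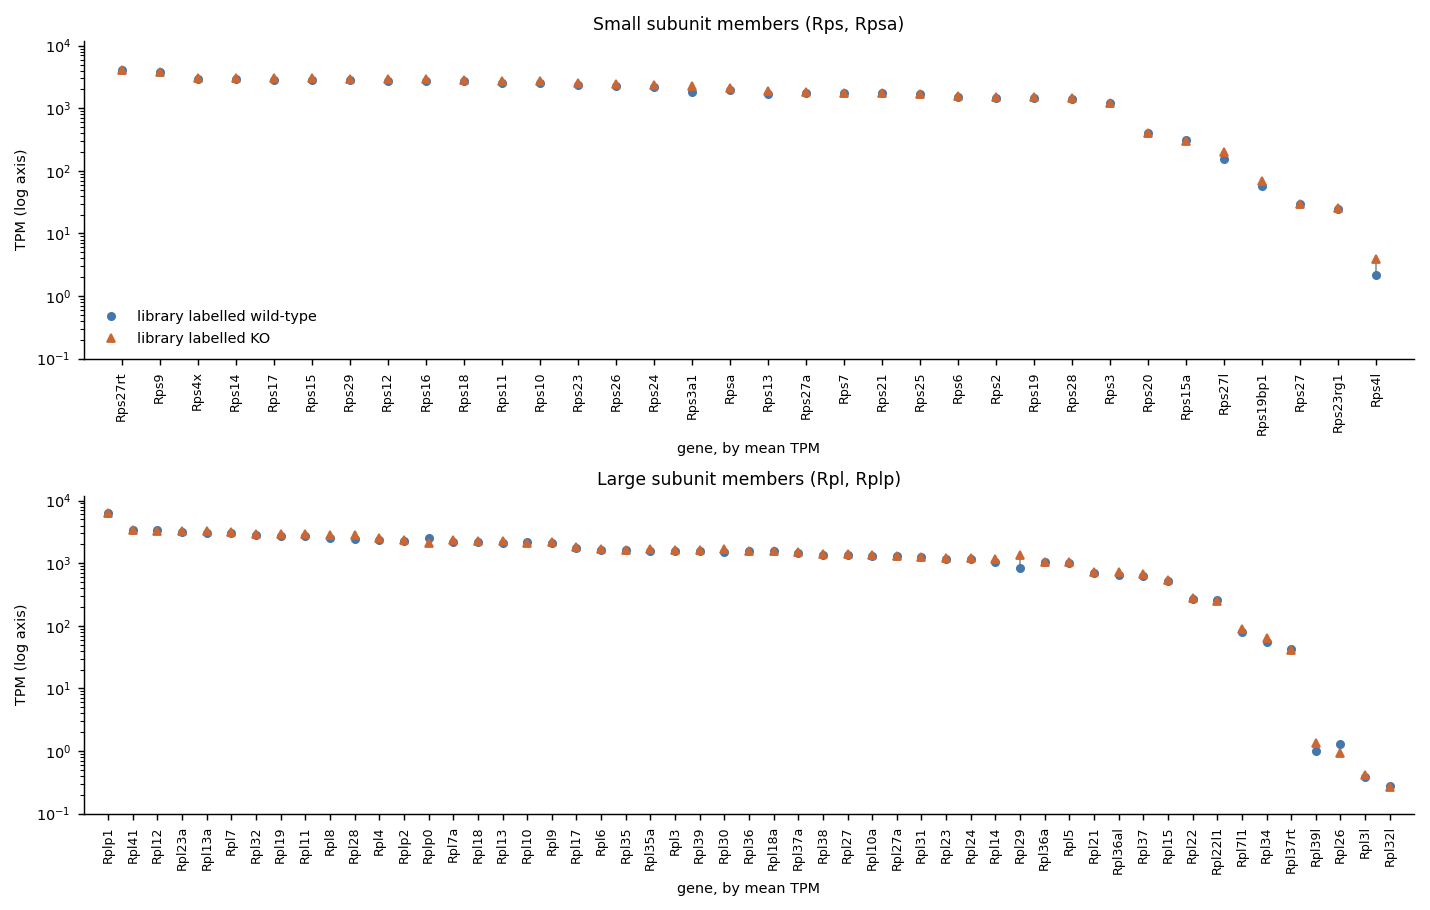
Levels of members in both libraries, in TPM on a log axis, ordered by mean TPM, for small subunit (top) and large subunit members (bottom). Circles are the library labelled wild-type and triangles the library labelled KO; Rpl10l, at 0 in both, is left out. Most members stand between 1000 and 3000 TPM with both symbols nearly on each other, and Rpl29 and Rps4l show the widest gaps.

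Of the 90 members, 87 reached 1 TPM in at least 1 library and were compared as log2 of (TPM + 1) in the library labelled KO over (TPM + 1) in the library labelled wild-type. No member reached a log2 fold change of 1 in size, where 2.03% of all 12029 genes tested did, 0.657% higher and 1.37% lower. At 0.5 in size stood 2 members, Rpl29 and Rps4l, both higher in the library labelled KO, beside 9.78% of all genes. The median of the members was 0.06, with an interquartile range of 0.08, and the median of all genes was -0.07 with an interquartile range of 0.33. Above zero were 74 members (85.1%), against 38.5% of all genes. Small and large subunit members had the same median of 0.06, with 32 of 36 and 42 of 51 above zero.

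How far the members lay above zero depended on the scale, which moves members and other genes by nearly the same amount. With FPKM, which is not forced to a fixed sum, the median of the members was 0.16 and that of all genes 0.02, and 97.7% of members and 53.5% of all genes were above zero. With values rescaled by the median ratio of genes, the medians were 0.12 and -0.02, with 95.4% and 47.6% above zero.

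Beside other abundant genes the members had a like median and a smaller spread. At 500 TPM or more in both libraries, 73 members had a median of 0.06 and an interquartile range of 0.07, and 169 other genes had a median of 0.07 and an interquartile range of 0.23. Genes with short RNAs in general were higher in the library labelled KO. At 100 TPM or more in both libraries, 282 other genes with RNAs of up to 1000 bases had a median of 0.16, with 86.5% above zero, and 1601 longer ones a median of -0.02. The tested members, taken here without the limit of 100 TPM, did not divide in this way: 67 members of up to 1000 bases and 20 longer ones both had medians of 0.06. The 78 members of any length at 100 TPM or more in both libraries also had a median of 0.06. The genes of the mitochondrial ribosome, named Mrpl or Mrps and encoded separately in the nucleus, had a median of 0.13, with 73 of 78 above zero and 1 called higher.

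**Figure D2:**
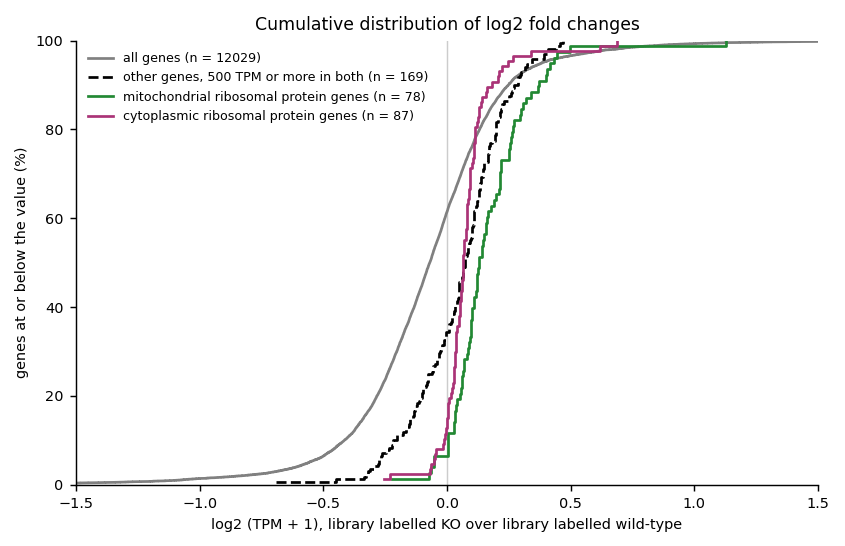
Cumulative share of genes (vertical axis, percent) at or below each log2 fold change (horizontal axis). The curve of the 87 cytoplasmic ribosomal protein genes is the steepest of the curves plotted and crosses 50% at 0.06, between all genes at -0.07 and the 78 mitochondrial ribosomal protein genes at 0.13.

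Among the small subunit members, Rps27rt was listed highest at 4122 and 4121 TPM, a gene ID that stands for the Rps27 locus as described below. Rps9, a protein of the 40S body needed for early subunit assembly, followed at 3758 and 3803 TPM. Rps6, whose protein is phosphorylated by S6 kinase downstream of mTORC1, stood at 1489 and 1557 TPM, and Rps6 lay at the middle of all members with a log2 fold change of 0.06. The library labelled KO was at or just above the other in these abundant members, except for a gap of under 1 TPM in Rps27rt.

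Rps3a1 and Rps27l were among the highest of the small subunit. Rps3a1, a protein of the 40S subunit, was at 1852 and 2229 TPM, a log2 fold change of 0.27 (95% counting interval of the ratio 1.18 to 1.23). Rps27l, a paralog of Rps27 known as a p53 target, was at 157 and 200 TPM, a ratio of 1.27 (1.15 to 1.39). Intervals here are exact, from estimated read pairs, and cover counting error only. They take read pairs as independent, which copies made by PCR are not, so they can be too narrow. Rps19bp1, no ribosomal protein, was at 57.6 and 68.4 TPM, a log2 fold change of 0.25. Of the 4 small subunit members below zero, Rps15a, a protein of the 40S subunit, was the lowest, at 308 and 306 TPM (log2 fold change -0.01).

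In the large subunit, Rplp1 was the most abundant gene of all members. With Rplp2 it forms the acidic stalk that recruits elongation factors, and Rplp0 anchors the stalk to the ribosome. Rplp1 was at 6440 and 6226 TPM (log2 fold change -0.05) and Rplp2 at 2278 and 2359 TPM (0.05). Rplp0 was at 2483 and 2115 TPM, a ratio of 0.851 (0.838 to 0.865) and a log2 fold change of -0.23. So the 3 stalk genes did not differ in the same direction, and Rplp0 was the lowest among members with at least 5 TPM. With FPKM its log2 fold change was -0.13, also below zero.

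Rpl41, which encodes the shortest protein of the ribosome, was at 3427 and 3435 TPM. Rpl12, which binds at the base of the stalk, was at 3362 and 3261 TPM, a log2 fold change of -0.04. Rpl23a, beside the exit of the nascent chain, was at 3099 and 3253 TPM. Apart from Rplp0, the lower members were close to zero. Rpl10, which is needed for the joining of subunits, had a log2 fold change of -0.05, and Rpl27a one of -0.02. Rpl37rt, a retroposed copy of Rpl37, was at 42.7 and 40.8 TPM (-0.06).

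Rpl29 stood apart from every other member with at least 5 TPM. It was at 835 and 1346 TPM, a ratio of 1.61 (1.56 to 1.66) and a log2 fold change of 0.69. The next members of the large subunit were far below it: Rpl34 with 0.21, Rpl28 with 0.21 at 2428 and 2799 TPM, and Rpl30 with 0.16. Rpl29, a small basic protein of the large subunit, has many processed copies in the mouse genome. Of the 50-base words of its transcript, 66.8% were also found in transcripts of 84 other genes of GENCODE M21. The first exon of that transcript shared 13.8% of its words and the second 66.0%. In NM_001324533, which was given 86.5% and 84.4% of the gene, the scaled depth of the first exon was 102 and 151. In the exons of the locus merged over transcripts, of which the first spans both of these exons, the log2 ratios of depth were 0.66, 0.68 and 0.69 from the 5′ end. The part of reads from copies in the difference was not tested.

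Exon by exon, the members were even. A log2 ratio was computed for each exon of a locus, from depth scaled to the library and with exons merged over transcripts, for 376 exons of 78 loci with at least 200 read pairs in both libraries. Exons of other genes, used for comparison, had the same floor of read pairs but were not matched to the members for depth. Tested members had a median of 1666 TPM in the library labelled wild-type, against 30.3 TPM for all genes. Gene IDs listed on the same exons were summed for members only. Only 1 of these 376 exons lay 0.3 or more from the median of its own gene, and 5.63% of 12420 exons of other genes did so. The median distance was 0.02 among members and 0.07 among other genes.

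That exon was the fourth of Rplp0. The scaled depth of exon 4 was 3237 and 2164, a log2 ratio of -0.58, while exon 3 had -0.33 and exons 2, 5, 6 and 7 lay between -0.16 and -0.09. Exon 4 rested on 4115 and 3546 read pairs. The low value of Rplp0 was thus uneven along the gene and deepest in the middle. The exon spans chr5:115561099-115561245 on the + strand (GRCm38), is 147 bases long and lies wholly within the coding sequence of the GENCODE M21 transcript. Its sequence in GENCODE M21 is shown because the exon departed most from its gene. Capitals mark bases covered by 50-base words that also occur in transcripts of other genes, in the main processed pseudogenes such as Gm8730 and Gm9625.
Rplp0 exon 4: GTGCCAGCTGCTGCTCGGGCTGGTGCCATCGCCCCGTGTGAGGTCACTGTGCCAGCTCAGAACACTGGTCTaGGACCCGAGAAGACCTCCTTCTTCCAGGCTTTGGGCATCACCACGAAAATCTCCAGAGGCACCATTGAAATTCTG
All but 1 of the 147 bases lie in such words. Exon 4 shared 58.7% of its words with other genes, and exon 5, with a log2 ratio of -0.12, shared 94.5%. The sources used here do not say how reads that fit several places were handled, and the part of such reads in the difference was not tested.

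Rps3a1 showed a graded pattern. From the 5′ end its 6 exons had log2 ratios of 0.06, 0.08, 0.23, 0.35, 0.53 and 0.42. Exons 1 and 2 were thus at the level of the other members, and the difference of the gene lay in exons 3 to 6. The exons of Rps3a1 shared between 31.8% and 100% of their words with other genes. The part of reads from copies in this pattern was not tested.

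**Figure D3:**
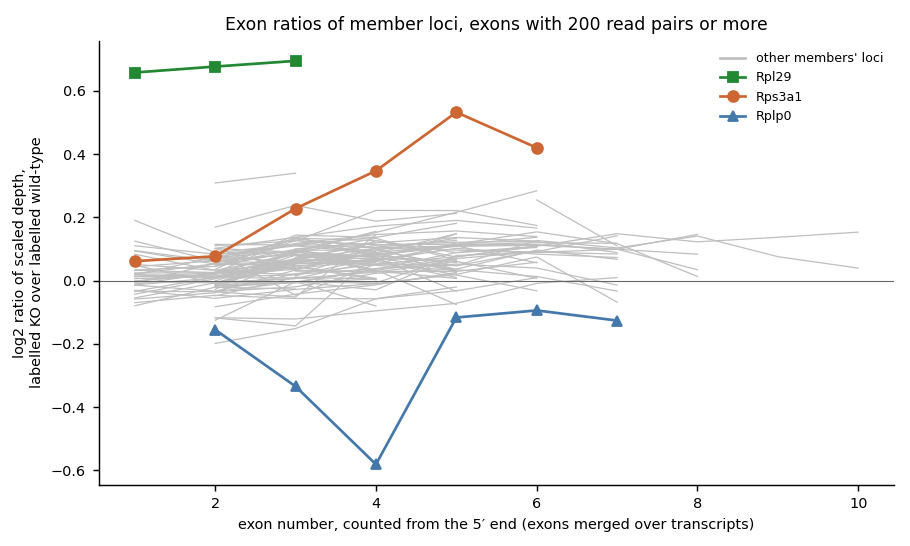
Log2 ratio of scaled exon depth, library labelled KO over library labelled wild-type (vertical axis), by exon number from the 5′ end (horizontal axis), for exons with at least 200 read pairs in both libraries. Rpl29 is evenly high, from 0.66 to 0.69, Rps3a1 climbs from 0.06 to 0.53, and Rplp0 dips to -0.58 at exon 4, while the grey lines of the other loci run close together just above zero.

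In many genes of these libraries the last exon differed from the rest of the gene, and the members took little part in this. In the most abundant transcript of each gene, the log2 ratio of the terminal exon minus that of all upstream exons had a median of 0.19 over 6514 genes and of 0.02 over 76 members. The 6514 genes were not matched to the members for level or for length of the RNA or its last exon. At 0.5 or more in size stood 7.55% of all genes and 1 member, Rpl22, with -0.58. When the exons of Rpl22 were merged over its transcripts the same contrast was 0.03.

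The contrast in Rpl22 went with the division of reads among its annotated transcripts. The gene, whose RNA-binding protein is needed for alphabeta T cells, has 5 annotated transcripts, and its total was 268 and 279 TPM. NM_009079 was given 89.3% and 39.2% of the gene, and NM_001277113 was given 6.56% and 48.8%. These transcripts share 3 exons and differ in the first. The first exon found only in NM_001277113 held an estimated 0.37 and 0.41 read pairs. The merged exons that hold most of the reads had log2 ratios of 0.03, 0.03 and 0.06. The shares thus differed in the deposited estimates while the depth of the exons that hold most of the reads was nearly equal. The first exon of NM_009079, which other transcripts also use, held a merged 63.1 and 89.6 read pairs, a log2 ratio of 0.14.

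Rps27a, which encodes ubiquitin fused to a small subunit protein, was the only other member with a share that differed by 10 percentage points or more. Among 15 members with at least 2 transcripts and 10 TPM in both libraries, these 2 compare with 27.7% of all 3032 such genes. NM_001033865 of Rps27a was given 17.7% and 32.2% of the gene, but the exon that sets it apart, the long form of the first exon, had a scaled depth of 79.5 and 72.4 in it. The total of Rps27a was 1743 and 1807 TPM. Most members have no such ambiguity, as 74 of 90 have a single annotated transcript.

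**Figure D4:**
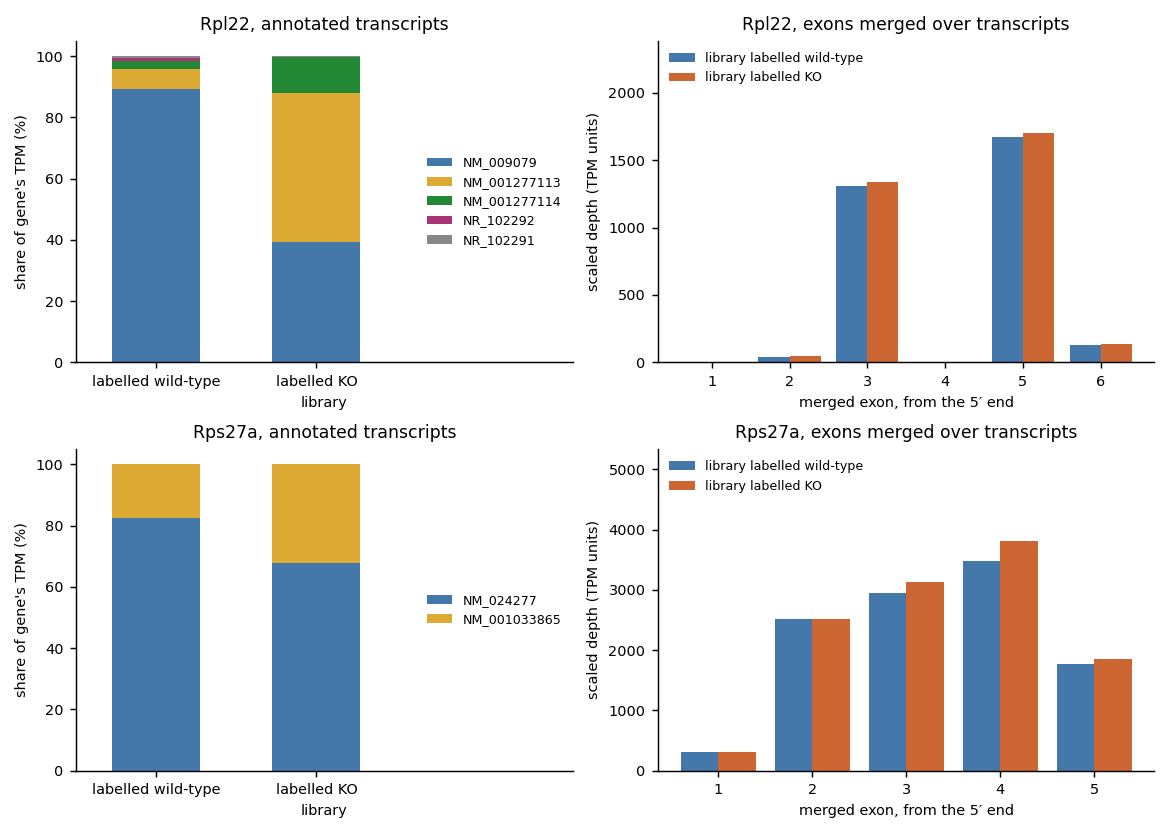
Shares of annotated transcripts (left, percent of the gene's TPM) and scaled depth of merged exons (right, in TPM units) of Rpl22 (top) and Rps27a (bottom) in both libraries. The share of NM_009079 of Rpl22 goes from 89.3% to 39.2%, while the bars of both libraries on the right are nearly equal for every exon.

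Division of reads between gene IDs also touched the levels of 4 members. In the deposited annotation the exons of Rpl26, Rpl30, Rpl34 and Rps27 carry a further gene ID that belongs to a processed copy on another chromosome, so that reads of 1 locus were divided between both IDs. Rpl26, a protein at the exit tunnel, was listed at 1.3 and 0.93 TPM, on about 6 read pairs in each library. Gm15772, whose RefSeq place is on chromosome 5, was listed on the exons of Rpl26 on chromosome 11 at 2688 and 2668 TPM. The sum was 2689 and 2669 TPM, a log2 fold change of -0.01, so neither the near absence of Rpl26 nor its fold change of -0.26 was present at the level of the locus. Rps27 was listed at 29.6 and 29.6 TPM and Rps27rt, which RefSeq places on chromosome 9, at 4122 and 4121 TPM on the exons of Rps27 on chromosome 3.

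At the Rpl30 locus the sum did not show the difference of Rpl30 alone, and at the Rpl34 locus it had the opposite sign. Rpl30, a protein of the large subunit, was at 1502 and 1679 TPM, and Gm12191 on the same exons was at 337 and 158 TPM, a log2 fold change of -1.08. Their sum was 1839 and 1837 TPM, a log2 fold change of 0.00. Rpl34 was at 56.0 and 65.0 TPM and Rpl34-ps1 at 1381 and 1260 TPM, and their sum had a log2 fold change of -0.12, against 0.21 for Rpl34 alone. By sum, the Rpl34 locus was among the lowest of the members, next to Rplp0. Counted by locus, the 90 members were 89 loci with 15.6% and 16.3% of all TPM, the median of 86 tested loci was 0.06, and 72 were above zero and 14 below.

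**Figure D5:**
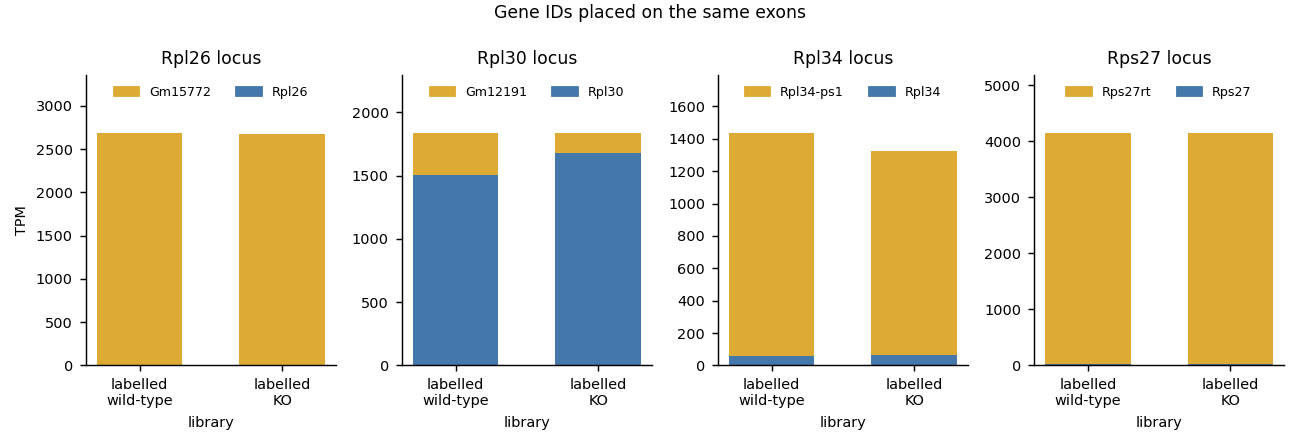
Level in TPM (vertical axis) of gene IDs placed on the same exons, stacked, in both libraries (horizontal axis), for the Rpl26, Rpl30, Rpl34 and Rps27 loci. The copy's ID (yellow) holds nearly all of the level at 3 of the 4 loci, and the stacks of Rpl30 reach 1839 and 1837 TPM although Rpl30 alone (blue) differs, at 1502 and 1679 TPM.

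Near-identical copies elsewhere could touch more members than these. The median member shared 51.4% of its 50-base words with other genes, and 15 members shared under 20%. The 13 of those 15 that were tested had a median log2 fold change of 0.11, with 92.3% above zero. Among them were Rps19bp1, no ribosomal protein (0.25), and Rps4l (0.62) and Rpl39l (0.22), both on few read pairs. No median was taken without these genes. Rps3, a protein at the mRNA entry of the 40S subunit that shared 2.96%, had a value of 0.00. Exons of Rpl5, Rpl31, Rpl32, Rpl35, Rps25 and Rps27a overlap exons of genes on the opposite strand, and the sources used here do not state the strand setting, so reads of such pairs cannot be told apart. The largest of those 6 partners, Ccdc84 opposite Rps25, was at 43.8 and 37.7 TPM beside 1666 and 1714 TPM of Rps25.

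The paralogs of members were mostly low, apart from Rpl22l1 and Rpl36al. Rpl22l1, which can stand in for Rpl22 in the ribosome, was at 263 and 251 TPM, or 97.9% and 89.9% of the level of Rpl22. Its log2 fold change of -0.07 became 0.03 with FPKM, and its ratio of 0.95 had a counting interval of 0.88 to 1.03. Rpl36al was at 654 and 716 TPM, or 63.6% and 68.0% of Rpl36a. Rps27l stood at 3.82% and 4.84% of the ID that carries the Rps27 locus. Rpl7l1, a nucleolar relative of Rpl7, was at 79.5 and 87.5 TPM, or 2.61% and 2.75% of Rpl7.

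The tissue-restricted paralogs were at or near zero. Rpl10l, a testis gene without introns, was at 0 in both libraries, where 3 read pairs would be 0.339 and 0.263 TPM, and Rpl3l, known from muscle, was at 0.38 and 0.42 TPM beside 1566 and 1643 TPM of Rpl3. Rpl39l, also known from testis, was at 1.01 and 1.34 TPM beside 1580 and 1613 TPM of Rpl39. Rps4l, an intronless relative of Rps4x, was at 2.21 and 3.93 TPM, with a ratio of 1.78 (counting interval 0.999 to 3.29) on 18 and 41 read pairs. Its log2 fold change of 0.62 was thus at the edge of counting error. Rpl32l was at 0.27 TPM in both libraries. The 4 members on the X chromosome, Rpl10, Rpl36a, Rpl39 and Rps4x, had log2 fold changes between -0.05 and 0.03. The libraries differed in Xist, and the part of sex in these values was not tested.

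Ribosomal proteins whose symbols the name rule does not take were like the members. Fau, which encodes a ubiquitin-like protein fused to a 40S protein, was at 2105 and 2245 TPM. Rack1, a scaffold on the 40S head, was at 2386 and 2472 TPM. Their log2 fold changes were 0.09 and 0.05.

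Lists of other genes of translation and of other TOP RNA genes had medians between 0.01 and 0.05. The 7 elongation factor genes had a median of 0.05, with 5 above zero. Eef2, which drives translocation and is itself a TOP RNA, was the lowest of them at 2236 and 1944 TPM (-0.20), followed by Eef1d (near zero), and Eif5a (0.32) and Eef1b2 (0.23) were the highest. The 39 initiation factor genes had a median of 0.04, with 25 above zero. Eif3j1, a low gene at 1.29 and 0.12 TPM, was called lower, beside Eif3j2 at 57.0 and 55.3 TPM (-0.04). Whether reads were divided between these genes was not tested. Eif4g2 had -0.44, and Eif6 and Eif3g had 0.23 each. The 16 other TOP RNA genes divided evenly, 8 above and 8 below zero with a median of 0.01, from Snhg12 (-0.46) and Snhg6 (-0.21) to Slc25a5 (0.17) and Naca (0.20).

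Genes that act on ribosomes or on their RNAs had medians near that of all genes, which was -0.07 with 38.5% above zero. The 17 genes of TOP and mTORC1 control had a median of -0.13, with 5 above and 12 below zero. Tsc1, an inhibitor of mTORC1, was at 30.2 and 21.6 TPM (-0.47), and Mtor, its kinase, at 35.9 and 26.2 TPM (-0.44). Eif4ebp1 (0.26) and Rheb (0.20) were the highest of that list. The 30 tested genes of ribosome assembly and surveillance had a median of -0.02, with 13 above and 17 below zero, from Xpo1 (-0.53) and Mdn1 (-0.39) to Bccip (0.26) and Ltv1 (0.31). Of the mitochondrial ribosomal protein genes, Mrps25 at 16.0 and 36.2 TPM (1.13) and Mrps12 (0.50) were the highest and Mrpl1 (-0.22) and Mrpl32 (-0.07) the lowest.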

How the data were processed

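RNA of sorted CD69+ DP thymocytes was measured in 2 libraries, 1 per genotype, made from 1 ug of total RNA with a TruSeq kit, per the labels' protocols. The submitters' processing notes name HISAT2 and StringTie and the builds mm10 and GRCm38. For HISAT2 the version, and for both steps the read filters and strand setting, were not given in the sources used here. StringTie 1.3.3b was run by the authors on annotated transcripts only, per the file headers. The deposited gene tables give TPM and FPKM, and the deposited transcript files give coverage, the mean read depth per base, for each transcript and exon.

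TPM of rows with the same gene ID was summed and IDs were named from the RefSeq table of GRCm38.p6, which left 70 without a symbol. Fold changes are log2((TPM + 1) labelled KO / (TPM + 1) labelled wild-type) of genes that reach 1 TPM in either library, a scale that understates changes of low genes. A gene was called at 1 or more in size, a rule and not a test. Read pairs were estimated as covered bases divided by 202, because 33.2% of transcripts with few reads in each library had totals within 2 bases of a multiple of 202, against 2.48% for even spacing. Levels have 95% exact Poisson and ratios exact binomial intervals. Exon depth was scaled to sum as TPM does. A gene ID was placed on a member's exons where they overlapped on the same strand by at least 50%. Shared sequence was counted as 50-base words that a GENCODE M21 transcript of another gene holds, in either orientation.

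Members and gene lists were chosen with earlier results of these data known. Genes named are the 6 most abundant members, the 8 highest and 8 lowest with at least 5 TPM, paralogs with their parents, members under 1 TPM, members past the share or terminal exon limits, Rps19bp1, Fau, Rack1 and the 2 highest and 2 lowest of each list on translation; Rpl26, Rps6, Rplp2, Rps3, Rps25 and the copies on members' exons were named after their values were seen. A few single genes are not reported here and are left out of the plot of levels. Python 3.11.15 was used with matplotlib 3.10.9, scipy 1.17.1, pandas 2.3.3 and numpy 2.4.6, and the fold and exon rules were tested on simulated data. Alternatives tried were other pseudocounts, filters, FPKM, rescaling, upstream exons only and members with little shared sequence. Alternatives that sum IDs on the same exons, merge exons over transcripts, leave out Rps19bp1 and Rps23rg1 or keep members with 500 TPM, and those for single members, were chosen after seeing the data.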

Additional observations from a re-analysis of the deposited data

How the results depend on the processing

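No paired analysis was possible because each genotype has 1 library. Of 106 alternative values, 72 stayed within a limit and 34 moved further. The limit was the median counting half-width of a member's log2 ratio (0.03) for log2 values, 1.5 times for counts, and the 95% binomial half-width for percentages. These counts do not measure stability, because some outcomes were set by construction. FPKM shifts log2 values of abundant genes by about 0.10, past the limit, and leaves shares of the total unchanged. With FPKM the median log2 fold change was 0.16 for all members, 0.16 for the small subunit and 0.16 for the large subunit. Rescaled by the median ratio of genes it was 0.12, 0.12 and 0.12, and over members with under 20% shared words 0.11, 0.11 and 0.12. The members with under 20% shared words include Rps19bp1, Rps4l and Rpl39l, as given above. With upstream exons only, 1 member was called, Rpl37rt, on about 5 read pairs. Members with under 20% shared words held 1.27% and 1.35% of TPM, and loci with IDs summed 15.6% and 16.3%. At 25 percentage points 1 of 15 members had a differing transcript share, beside 6.63% of all 3032 such genes. The G2/M median was 0.88 with a pseudocount of 0.1. The pyrimidine run was found in 79.0% of promoters within 25 bases. The causes were not tested beyond what each setting changes by its construction. Precision is limited by the single library per genotype, by reads that fit several places and, for members under 5 TPM, by few read pairs.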
